A study of Mus musculus with 3 samples.

Results

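The genes described here encode 8 integrin subunits, the matrix protein nephronectin and focal adhesion kinase (FAK). The alpha subunits are Itga3, Itga5, Itga6, Itga7 and Itgav, the beta subunits are Itgb1, Itgb3 and Itgb5, nephronectin is Npnt and FAK is Ptk2. They were taken by symbol with no filter on their values, though the choice was made with earlier results of these data known. All 10 were found among the 23238 gene symbols of the count tables. All 10 also belonged to the 13169 genes with a CPM, a count scaled to library size, of at least 1 in any library, which are called the expressed genes here.

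The RNA came from c2c12, a permanent line of mouse muscle precursor cells that leave the cell cycle and fuse into myotubes once serum is lowered. In all 3 groups the cells were kept for 2 days in induction medium with 2% horse serum. The groups differed in the surface under the cells, which was tissue culture plastic (TCP), a hydrogel of 15% w/v methacrylated gelatin (GelMA), or the same gel with 1% w/v poly(sodium 4-styrenesulfonate), a polymer that carries sulfonate groups (GelMA-PSS). Each group is 1 library of this single cell line, so no difference below has a replicate check, no p-value was computed, and every interval covers counting error only. The comparisons ask how the receptors, ligand and kinase of cell adhesion differed with the surface. GelMA against TCP addresses the gel and GelMA-PSS against GelMA the polymer. GelMA-PSS against TCP covers gel and polymer together and does not separate them.

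Integrins are receptors of one alpha and one beta chain that span the membrane, hold the extracellular matrix on the outside and are joined to actin on the inside. In muscle the laminin receptor formed by Itga7 and Itgb1 anchors the myofiber to its basement membrane, while the fibronectin and vitronectin receptors are better known from proliferating and migrating myoblasts. Nephronectin is a secreted matrix protein with an RGD motif and EGF repeats that is bound by integrins, above all by the pair of Itga8 and Itgb1. FAK is a tyrosine kinase recruited to clustered integrins, where it works together with kinases of the Src family. Gelatin, the base of both gels, is denatured collagen and carries RGD sites that integrins can bind.

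The libraries held 87071144 to 192171443 counts, and TMM factors, which scale for library composition, ranged from 0.943 to 1.04. Of the 10 muscle markers examined, 10 reached 1 CPM in every library, among them the intermediate filament gene Des at 3299 CPM on TCP, 2863 on GelMA and 3154 on GelMA-PSS. Of 12 markers of other cell types, 3 (Cd68, Cdh1 and Bglap) reached 1 CPM in any library, and the 12 summed to 15.2, 11.8 and 9.17 CPM, so the libraries carried the genes of muscle cells. The GelMA-PSS library also stood apart in one property. Across 13060 expressed genes its log2 ratio to the mean of the controls had a Spearman correlation of -0.60 with transcript length, against 0.21 for GelMA over TCP. The 10 genes have long transcripts, with a median of 4346 bases against 2954 for the expressed genes, and log2 ratios of GelMA-PSS are therefore given as scaled and again after a smooth correction for transcript length and GC content.

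The promoters of Npnt and Itga5 are printed because Npnt had the lowest ratio of the set in GelMA-PSS against TCP and Itga5 was the one gene above both controls there. The windows run from 250 bases before to 50 bases after the RefSeq start on GRCm38.p6 and read 5′ to 3′ along the gene. Capitals mark E-boxes (CANNTG, the motif bound by MyoD and other bHLH factors) and the motif CACCC on either strand, where it appears as GGGTG on the printed one. The window of Npnt is chr3:132950242-132950541 and that of Itga5 is chr15:103366742-103367041, both on the minus strand.
Npnt: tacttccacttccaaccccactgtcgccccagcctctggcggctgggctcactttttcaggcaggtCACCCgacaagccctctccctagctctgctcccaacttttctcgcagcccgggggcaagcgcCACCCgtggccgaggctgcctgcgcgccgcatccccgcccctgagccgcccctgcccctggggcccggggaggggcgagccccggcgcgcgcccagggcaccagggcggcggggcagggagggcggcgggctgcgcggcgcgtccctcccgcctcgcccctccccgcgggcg
Itga5: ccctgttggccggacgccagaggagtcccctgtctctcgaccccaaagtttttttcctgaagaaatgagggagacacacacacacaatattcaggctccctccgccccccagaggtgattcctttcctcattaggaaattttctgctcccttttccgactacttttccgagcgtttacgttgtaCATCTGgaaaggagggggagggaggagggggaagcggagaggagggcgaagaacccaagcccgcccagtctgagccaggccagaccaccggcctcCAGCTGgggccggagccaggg
The Npnt window holds 0 E-boxes and 2 CACCC motifs, and the Itga5 window 2 E-boxes and 0 CACCC motifs. Of all 32851 promoter windows of this length, 72.3% hold an E-box and 57.5% hold CACCC, so each motif alone is common. RefSeq lists another Npnt start at chr3:132949765-132950064, whose window holds 3 E-boxes and 1 CACCC motif. A window was matched for 6 of the 10 genes, and the others hold 3 E-boxes and 1 CACCC motif for Itgb5, 1 and 0 in each of the windows of Itga3, 0 and 1 for Itgav, and 0 and 2 for Itgb1. These matches describe letters in the windows and are not evidence of binding.

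Of the laminin-binding alpha chains, Itga7 and Itga6 were lowest in GelMA-PSS and so was Itga3, but the correction left GelMA-PSS lowest for Itga6 only. Itga7, the main laminin-binding alpha chain of differentiated muscle (chr10:128933818-128958282, plus strand, GRCm38), had 287393 counts on TCP, 188359 on GelMA and 345701 on GelMA-PSS, which are 2360, 2073 and 1908 CPM. The libraries thus stood in the order TCP, GelMA, GelMA-PSS, and the counting intervals did not overlap, the closest bounds being 2063 CPM for GelMA and 1915 CPM for GelMA-PSS. The log2 ratio, always of CPM + 1 here, was -0.19 for GelMA against TCP, -0.12 for GelMA-PSS against GelMA and -0.31 for GelMA-PSS against TCP. Once corrected for length and GC content, the latter ratios became 0.09 and -0.14, so that GelMA-PSS lay between its controls. The protein-coding gene Mettl7b overlaps Itga7 on the opposite strand, and how the counting treated strand is not given, so reads from the overlap cannot be assigned with certainty.

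Itga6 (chr2:71745616-71858416, plus strand), the alpha chain of laminin receptors on satellite cells and epithelia, had 173 CPM on TCP, 168 on GelMA and 141 on GelMA-PSS. The controls were within 0.04 of each other on the log2 scale, with counting intervals that nearly touched, the upper bound of GelMA and the lower bound of TCP both rounding to 170.2 CPM, and GelMA-PSS was the low library. Its log2 ratio was -0.24 to GelMA and -0.29 to TCP, and -0.10 and -0.17 after the correction. Itga3 (chr11:95044474-95076801, minus strand), which also binds laminins, had 83.5 CPM on TCP, 94.3 on GelMA and 75.0 on GelMA-PSS, so GelMA was high and GelMA-PSS low. The log2 ratios of GelMA-PSS were -0.33 to GelMA and -0.15 to TCP, but 0.02 and 0.12 after the correction, which turned both signs. Among these 3 laminin-binding alpha chains Itga6 alone was below both controls on both scales.

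The fibronectin receptor chain behaved differently. Itga5 (chr15:103344286-103366763, minus strand), which pairs with Itgb1 to bind the RGD site of fibronectin, had 227 CPM on TCP, 271 on GelMA and 281 on GelMA-PSS, from 27648, 24603 and 50833 counts. TCP was the low library, and the intervals of GelMA and GelMA-PSS, 267 to 274 and 278 to 283 CPM, did not touch. The log2 ratio was 0.25 for GelMA against TCP, 0.05 for GelMA-PSS against GelMA and 0.30 for GelMA-PSS against TCP. After the correction the ratios of GelMA-PSS were 0.33 and 0.52, above those of 87.4% and 89.7% of the expressed genes. Scaled by library totals alone, without TMM factors, the ratio of GelMA-PSS to GelMA was -0.09, so the direction of that small difference depends on the scaling.

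The chains of the vitronectin receptors did not move as one group. Itgav (chr2:83724397-83806916, plus strand), the alpha chain that pairs with Itgb3 or Itgb5 to bind vitronectin and other RGD proteins, had 113 CPM on TCP, 139 on GelMA and 87.3 on GelMA-PSS. GelMA was the high library and GelMA-PSS the low one, with log2 ratios of 0.29 for GelMA against TCP, -0.66 for GelMA-PSS against GelMA and -0.37 for GelMA-PSS against TCP. Itgav also has the longest transcript of the 10 genes, 7054 bases, and after the correction the ratios of GelMA-PSS were -0.24 and -0.06. Its lower value in GelMA-PSS thus kept its sign, while the correction moved it more than any other of the 10 genes.

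Itgb3 (chr11:104608000-104670476, plus strand), the beta chain of the classical vitronectin receptor, had the largest ratio between the controls. It had 3237 counts on TCP, 4295 on GelMA and 6958 on GelMA-PSS, or 26.6, 47.3 and 38.4 CPM, with 95% intervals of 25.7 to 27.5, 45.9 to 48.7 and 37.5 to 39.3. TCP was low and both gels were high. The log2 ratio of GelMA to TCP was 0.81, with a counting interval of 0.74 to 0.87, and was above that of 98.6% of the expressed genes. GelMA-PSS had a ratio of 0.51 to TCP and -0.29 to GelMA, and 0.80 and 0.10 after the correction, so that only its place against GelMA changed with the correction. Itgb5 (chr16:33829665-33949338, plus strand), the other partner of Itgav, had TCP as its high library, with 264 CPM on TCP, 226 on GelMA and 209.6 on GelMA-PSS and ratios of -0.22, -0.11 and -0.33 in the order used above, the ratios of GelMA-PSS becoming -0.02 and -0.25 after the correction. Counted per length, the ratio of Itgb3 to Itgb5 was 0.0571 on TCP, 0.118 on GelMA and 0.104 on GelMA-PSS, with Itgb5 in excess in every library.

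Itgb1 (chr8:128685654-128733200, plus strand), the partner of Itga3, Itga5, Itga6 and Itga7, had the ratio between the gels nearest to 0 of the 8 chains. It had 1216 CPM on TCP, 1128 on GelMA and 1113 on GelMA-PSS. The ratio was -0.11 for GelMA against TCP, -0.02 for GelMA-PSS against GelMA and -0.13 for GelMA-PSS against TCP, and the correction moved each of them by 0.01 at most. Counts per gene do not separate splice forms such as the muscle form of Itgb1 or the laminin-binding variants of Itga7.

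**Figure D1:**
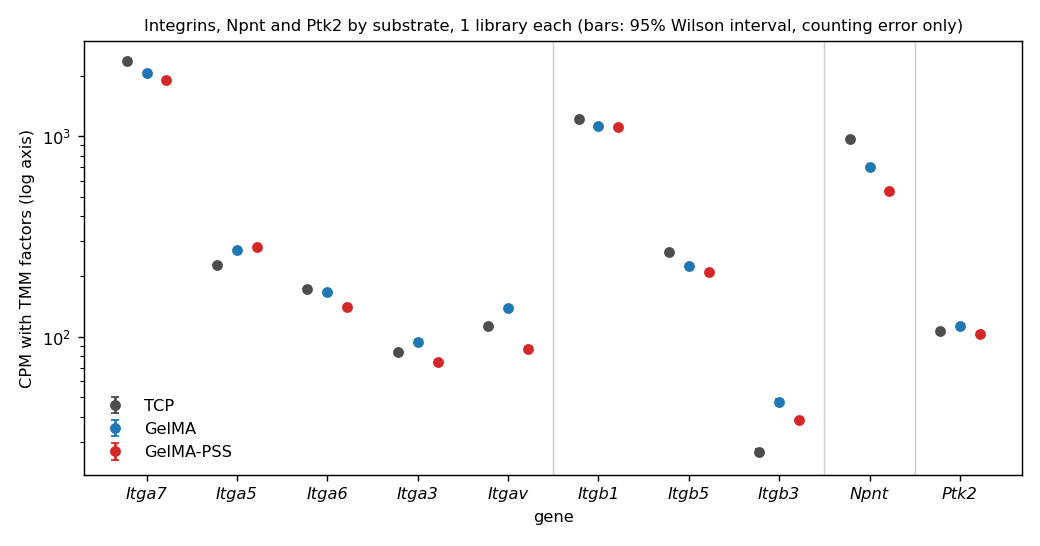
Level of each of the 10 genes in the TCP, GelMA and GelMA-PSS libraries in CPM on a log axis, 1 library each, with bars for the 95% counting interval, most of them smaller than the points. Npnt steps down from 970.5 to 699.8 and 535 CPM and Itgb3 is low on TCP with 26.6 CPM, while heights of different genes are not per transcript length.

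The ligand showed the largest ratio of the set as scaled. Npnt (chr3:132881745-132950291, minus strand) had 118175 counts on TCP, 63598 on GelMA and 96860 on GelMA-PSS, which are 970.5, 699.8 and 535 CPM, with intervals of 965 to 976, 694 to 705 and 531 to 538. TCP was highest and GelMA-PSS lowest, and no intervals overlapped. The log2 ratio was -0.47 for GelMA against TCP, -0.39 for GelMA-PSS against GelMA and -0.86 for GelMA-PSS against TCP, so the level on GelMA-PSS was 0.55 times that on TCP. Against TCP, 3.93% of the expressed genes had a lower ratio in GelMA and 4.88% in GelMA-PSS. The correction moved the ratios of GelMA-PSS little, to -0.33 against GelMA and -0.81 against TCP, with the principal transcript of 3601 bases. With the transcript of the longest coding sequence, of 1830 bases, they became -0.62 and -1.04. In RNA from a whole culture, fewer cells that express a gene and less RNA per cell cannot be told apart, for Npnt as for all genes here.

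Partners of Npnt were examined as well. Itga8, the alpha chain that with Itgb1 forms its best known receptor, had 10 counts on TCP, 10 on GelMA and 38 on GelMA-PSS, or 0.0821, 0.110 and 0.210 CPM, and was not among the expressed genes. Egfl6, the closest relative of Npnt, had 28, 27 and 14 counts and was not among them either. The level of Npnt was thus measured in cells with few transcripts of this receptor chain, while Itga5 and Itgav, chains that read RGD sites, were at 87.3 CPM or more in every library.

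The transcript of FAK differed little between surfaces. Ptk2 (chr15:73205102-73423280, minus strand) had 107 CPM on TCP, 113 on GelMA and 103 on GelMA-PSS, from 13073, 10313 and 18590 counts. The log2 ratio was 0.08 for GelMA against TCP, -0.14 for GelMA-PSS against GelMA and -0.06 for GelMA-PSS against TCP, and after the correction the ratios of GelMA-PSS were 0.01 and 0.06. These are levels of the transcript and say nothing of the amount of FAK protein or of the phosphorylation through which the kinase acts. Ptk2b, the other FAK family kinase, had 24.6, 32.1 and 35.1 CPM, higher on both gels than on TCP with log2 ratios of 0.37 and 0.49, the latter 0.62 corrected. Per length, Ptk2 stood at 3.85 times Ptk2b on TCP, 3.12 times on GelMA and 2.58 times on GelMA-PSS. An antisense gene, 1700085D07Rik, overlaps Ptk2, and its reads may be included in the counts.

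Against a threshold of 2-fold, 0 of the 10 genes differed between GelMA and TCP, where 1.00% of the expressed genes did, 0 between GelMA-PSS and GelMA, where 4.10% did, and 0 between GelMA-PSS and TCP, where 6.85% did. With a threshold of 1.5-fold, Itgb3 was higher in GelMA than in TCP (5.62% of expressed genes passed in either direction), Itgav was lower in GelMA-PSS than in GelMA (21.8%) and Npnt was lower in GelMA-PSS than in TCP (24.7%), and no gene of the set passed against both controls (15.3%). At 2-fold, 2.53% of the expressed genes passed against both. Without regard to size, 8 of the 10 genes had their lowest level in GelMA-PSS, as did 39.3% of the expressed genes. Itga5 was highest there (with library totals alone or TPM it was not), as 45.3% of the expressed genes were, and Itgb3 lay between. After the correction the 8 became 5 (Itga6, Itgav, Itgb1, Itgb5 and Npnt), with 40.6% of the expressed genes, and 4 were higher than both controls (Itga3, Itga5, Itgb3 and Ptk2), with 40.7%. The split after the correction is close to that of the expressed genes, and both comparisons with GelMA-PSS share that library.

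The medians moved in the same way. The median log2 ratio of the 10 genes was 0.02 for GelMA against TCP and -0.22 for GelMA-PSS against the mean of the controls, beside -0.01 and 0.03 for all expressed genes. Corrected, the latter was -0.05, beside 0.00 for all expressed genes. Corrected ratios to the mean of the controls lay between -0.15 and 0.07 for Itga3, Itga6, Itga7, Itgav, Itgb1, Itgb5 and Ptk2. The other 3 genes stood farther from 0. Npnt was at -0.57, with 6.95% of the expressed genes below it, and Itgb3 and Itga5 were on the other side at 0.45 and 0.42, above 90.6% and 89.4% of them. The share of all raw counts that fell on the 10 genes was 0.563% on TCP, 0.518% on GelMA and 0.423% on GelMA-PSS. This share has neither TMM factors nor the correction, and genes with many counts weigh most in it.

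**Figure D2:**
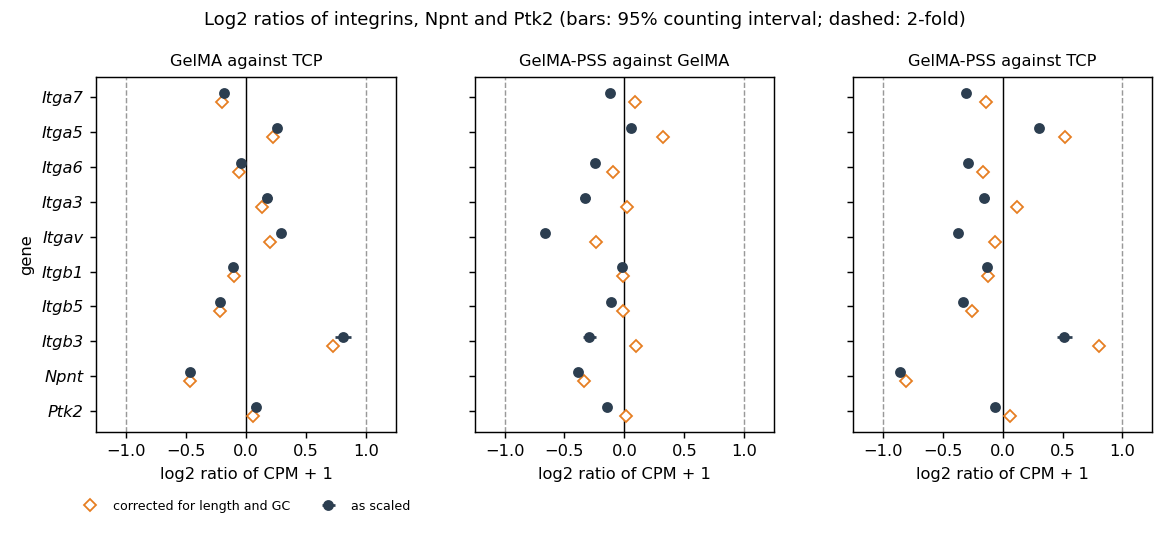
Log2 ratio of CPM + 1 for each gene in 3 comparisons of libraries, as scaled with the 95% counting interval (filled) and after correction for transcript length and GC content (open), with dashed lines at 2-fold. No gene reaches a dashed line, Npnt is nearest at -0.86 for GelMA-PSS against TCP, and for Itgav against GelMA the correction shifts -0.66 to -0.24.

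**Figure D3:**
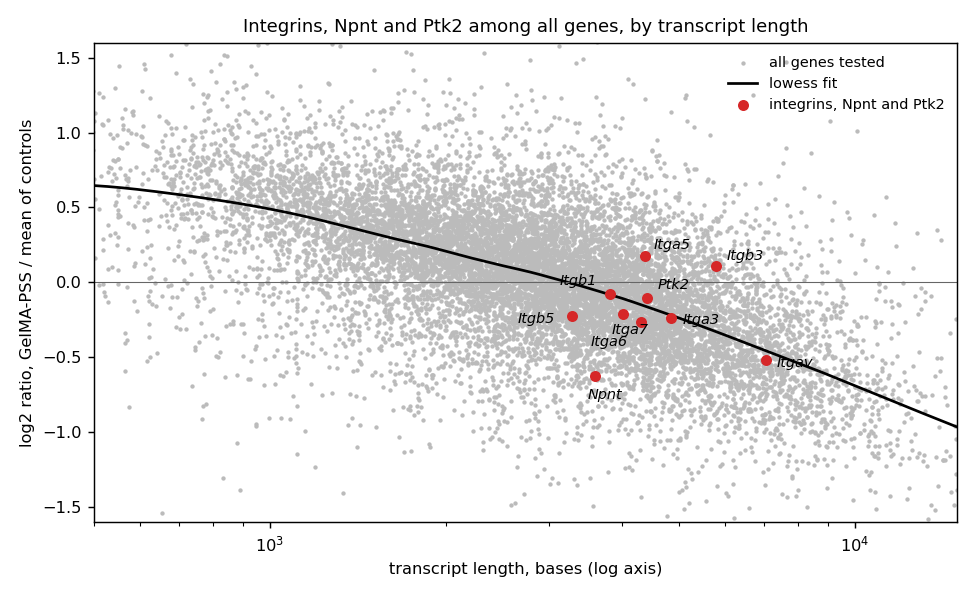
Log2 ratio of GelMA-PSS to the mean of the controls against transcript length in bases on a log axis for expressed genes (grey, those within the axis limits), with the smooth fit and the 10 genes in red. The fit falls with length, Itgav lies close to it at -0.52, Npnt lies below it at -0.62, and Itga5 and Itgb3 lie above it at 0.18 and 0.11.

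Grouped by the order of the libraries, 5 genes ran TCP, GelMA, GelMA-PSS from high to low (Itga6, Itga7, Itgb1, Itgb5 and Npnt), where 21.2% of the expressed genes did. Another 3 ran GelMA, TCP, GelMA-PSS (Itga3, Itgav and Ptk2), where 18.2% did. Itga5 had the reverse order of the first group, as 22.5% of the expressed genes did, and Itgb3 ran GelMA, GelMA-PSS, TCP, as 7.57% did. Among 119 expressed genes of the set and of the lists below, the genes with the pattern nearest to that of Itga7 over the 3 libraries were Acta1, the skeletal muscle actin, and Itgb5, both at a distance of 0.03 in the pair of log2 ratios GelMA against TCP and GelMA-PSS against GelMA, followed by Vasp at 0.07. With corrected ratios these distances were 0.48 for Acta1, 0.11 for Itgb5 and 0.23 for Vasp, so the likeness of Acta1 to Itga7 held only as scaled. Nearest to Npnt was Kank1 at 0.08, or 0.27 corrected. Itgad and Itga9 came next to Npnt at 0.09 and 0.16, but at 1.44 CPM or less in every library they lie near the pseudocount of 1, which shrinks their ratios, and so does Cd68, the nearest to Ptk2 at 0.05, with 1.37 to 1.71 CPM. These 3 are not read as alike. Pias1 and Tns2 stood at 0.06 each from Ptk2, and at 0.05 and 0.15 corrected.

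To compare levels between genes, counts were divided by transcript length and scaled to 1 sum per library (TPM). In every library Itga7 was highest, with 1193, 1087 and 726 TPM on TCP, GelMA and GelMA-PSS, followed by Itgb1 with 646, 622 and 445 and Npnt with 546, 409 and 227. Itgb3 was lowest, with 9.32, 17.2 and 10.1 TPM. Most neighbours in the order differed beyond counting error, except Itgav and Itga3 on GelMA, at 41.4 and 40.8 TPM, and Itga5 and Itgb5 on GelMA-PSS, at 97.7 and 97.5. The number of libraries gives no other error for these levels.

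Of all TPM of the 18 alpha chain genes, Itga7 held 81.1% on TCP, 77.6% on GelMA and 78.2% on GelMA-PSS. Itga5 held 7.14%, 9.28% and 10.5%, so that the ratio of Itga7 to Itga5 was 11.4, 8.36 and 7.43. Itga6 held 5.52%, 5.84% and 5.39%, Itga3 and Itgav each held 2.03% to 2.95%, and the 13 alpha chains outside the set together held 1.70%, 1.45% and 1.31%. Of the 9 beta chain genes, Itgb1 held 77.5%, 77.7% and 79.5%, Itgb5 19.6%, 18.1% and 17.4%, and Itgb3 1.12%, 2.15% and 1.81%. The receptor transcripts of these cells were thus mostly those of the laminin receptor Itga7 and Itgb1 on each surface, and the share of the fibronectin receptor chain was larger on both gels than on TCP. Alpha chain transcripts stood at 1.76, 1.75 and 1.66 times beta chain transcripts. The length dependence of the GelMA-PSS library was not removed from these shares.

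**Figure D4:**
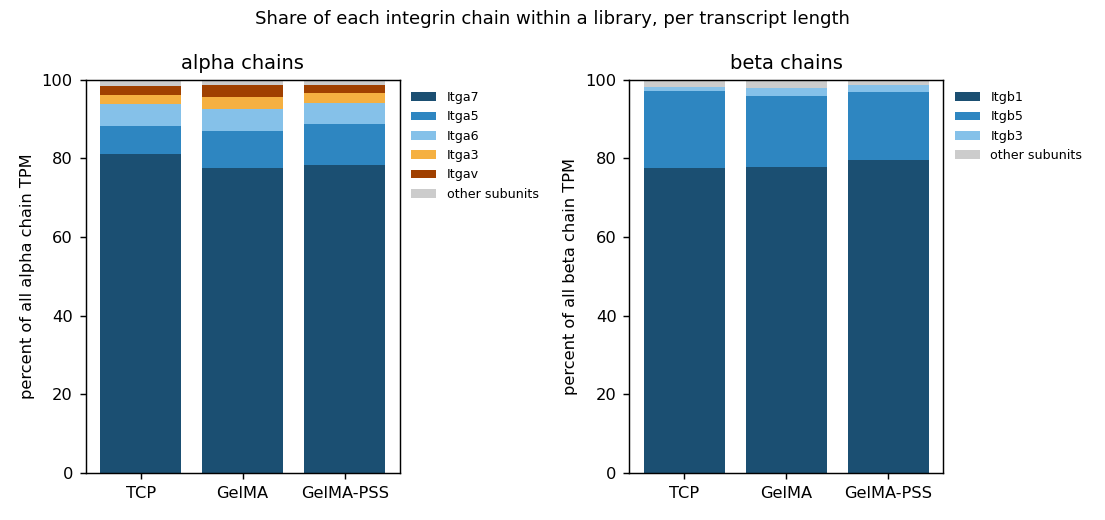
Share of each integrin chain in the TPM of all alpha chain genes (18) and all beta chain genes (9), in percent, for the 3 libraries. Itga7 holds 77.6% to 81.1% of the alpha chains and Itgb1 77.5% to 79.5% of the beta chains.

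Of the 19 other integrin subunits, 12 were expressed genes, of which GelMA-PSS was above both controls for 2 and below both for 8, with a median log2 ratio to their mean of -0.38, or -0.25 after the correction. The corrected counts were 3 above and 6 below. Itga10, a collagen receptor chain and the highest of them at 16.7 TPM on TCP, had 41.4 CPM on TCP, 24.5 on GelMA and 14.9 on GelMA-PSS, a log2 ratio of -1.42 for GelMA-PSS against TCP, or -1.17 corrected. Of 20 other integrin ligands, 16 were expressed, with 4 higher and 8 lower and a median of -0.35, or 0.03 corrected. The correction turned these counts to 5 higher and 3 lower. Spp1, which encodes the RGD protein osteopontin, had 2341 CPM on TCP, 4970 on GelMA and 5684 on GelMA-PSS, and the matrix glycoprotein gene Tnc had 117, 242 and 243, so both were past 2-fold in GelMA against TCP, with log2 ratios of 1.09 and 1.04. Corrected, these were 1.17 for Spp1 and 0.92 for Tnc, which no longer passed, and the ratios of GelMA-PSS to TCP, 1.28 and 1.05 as scaled, were 0.90 and 1.45. Both ligands were higher on the gels than on TCP on both scales, where Npnt was lower. Of the 16 expressed ligands, 11 were higher and 5 lower in GelMA than in TCP, or 10 and 6 corrected. Among the expressed genes 48.3% were higher and 51.7% lower, or 49.3% and 50.7% corrected. A lower level on GelMA was thus not particular to Npnt among the ligands.

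Of 36 adaptors and scaffold genes that join integrins to actin, 34 were expressed, with 11 higher and 19 lower than both controls and a median of -0.20, or -0.05 corrected. The corrected counts were 16 higher and 16 lower. Flnc, the muscle filamin, was past 2-fold below both controls, with 1394 CPM on TCP, 1265 on GelMA and 621 on GelMA-PSS, but its corrected ratios were -0.21 to GelMA and -0.56 to TCP, so the call was lost. Itgb1bp2, a muscle protein that binds the tail of Itgb1, was the highest of the list at 431 TPM on TCP and had 279.6, 182 and 174 CPM. Its ratios of GelMA-PSS were -0.07 to GelMA and -0.68 to TCP as scaled, and -0.50 and -1.03 corrected. It thus passed 2-fold against TCP only after the correction. Of 29 partners and substrates of FAK, 25 were expressed, with 5 higher and 14 lower, none past 2-fold, and a median of -0.19, or -0.05 corrected. With the correction 8 were higher and 12 lower. Fyn, a Src family kinase and the highest of them at 200.1 TPM on TCP, had 351 CPM on TCP, 251 on GelMA and 240.4 on GelMA-PSS, with corrected ratios of GelMA-PSS of -0.03 and -0.51.

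The membrane partners of integrins had the other direction on balance. All 10 were expressed, with 8 above and 0 below both controls in GelMA-PSS and a median of 0.57. Corrected, 6 were above and 3 below with a median of 0.28, and with TPM and no TMM factors 5 were above and 3 below with a median of 0.13. Plaur, the urokinase receptor, had 1123 counts on TCP, 1542 on GelMA and 6364 on GelMA-PSS, with log2 ratios of 1.01 to GelMA and 1.82 to TCP. Corrected, these were 0.70 and 1.57, so that it no longer passed 2-fold against both. The tetraspanin gene Cd63, the highest of the list, had 1379, 1325 and 2165 CPM, with corrected ratios of GelMA-PSS of 0.19 to GelMA and 0.23 to TCP. The lists differ in transcript length, and their medians are beside 0.03 for all expressed genes, or 0.00 corrected. The counts of each list stand beside 45.3% of the expressed genes above both controls and 39.3% below both. Corrected, these shares were 40.7% and 40.6%.

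Some genes of muscle differentiation had their lowest level in GelMA-PSS, as did Npnt on both scales and Itga7 as scaled only. Of the 10 muscle markers, 2 were higher and 5 lower than both controls, or 2 and 7 corrected. Among the expressed genes 45.3% were higher and 39.3% lower, or 40.7% and 40.6% corrected. The CPM of the markers summed to 26893 on TCP, 19858 on GelMA and 16690.3 on GelMA-PSS. These sums were not corrected for transcript length, and Myh3, given below, is a large part of each. The 2 higher on both scales were Myf5, with 13.9, 19.5 and 36.5 CPM, and Myod1, with 94.3, 105 and 119. The log2 ratio of GelMA-PSS to TCP was 1.33 for Myf5, or 1.06 corrected, and 0.34 for Myod1, or 0.22 corrected. Myh3, the embryonic myosin heavy chain, had 10182, 6355 and 3037 CPM, and the transcription factor gene Mef2c had 289, 181 and 81.0, both past 2-fold below both controls. Corrected, Mef2c still passed with ratios of -1.31 to GelMA and -1.95 to TCP, and Myh3 did not, with -0.61 and -1.40. Acta1 had 6192, 5379 and 5060 CPM, with corrected ratios of -0.38 and -0.53. Myog, a transcription factor of early differentiation, had 1099.9, 895 and 1037 CPM, and GelMA-PSS was its low library only after the correction, at -0.10 and -0.33. The part of a different degree of differentiation in the values of the 10 genes was not tested.

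**Figure D5:**
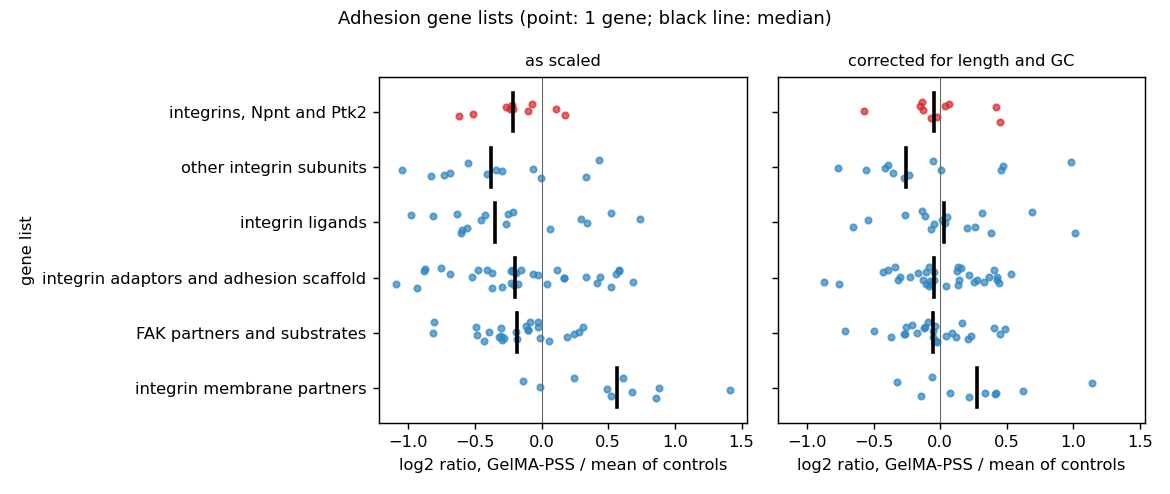
Log2 ratio of GelMA-PSS to the mean of the controls for each expressed gene of each list, as scaled and after correction for transcript length and GC content, with the median of each list marked. The medians run from -0.38 for other integrin subunits to 0.57 for the membrane partners, and -0.22 for the integrins, Npnt and Ptk2 becomes -0.05 after the correction.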

How the data were processed

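RNA-seq was done on c2c12 cells after 2 days of differentiation on TCP, GelMA and GelMA-PSS, and each substrate has 1 library. The files the authors deposited hold raw counts for each symbol, with no normalization. The methods describe a TruSeq kit and 101 bp strand-specific paired-end reads, whereas the labels name a SMARTER kit. The submitters' processing notes name TopHat, edgeR, mm10 and hg19 without giving their roles, and the counting tool and annotation are not given in the sources used here. Intervals would be too narrow had each pair been counted as 2 reads, which the sources do not state.

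Lines that share a symbol (79 of 23282) were summed. Counts were scaled to CPM with TMM factors (edgeR 4.0.16, R 4.3.3), which took the place of the FPKM named in the methods. Ratios were taken on log2(CPM + 1), which understates the change of low genes, for genes that reached a CPM of 1 in any library. TCP had 119799095 counts, GelMA 87071144 and GelMA-PSS 192171443, and the floor of 3 counts is 0.0246, 0.0330 and 0.0166 CPM in that order. Intervals are Wilson intervals at 95% for levels and normal approximations from the counts for ratios.

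Positions, lengths and GC content were read from the GENCODE vM21 annotation of GRCm38, using the principal transcript of the basic set for each gene. Symbols were matched directly for 22197 genes and by an older symbol for 669, and 372 were not matched. The correction subtracted lowess fits with a span of 0.3 (statsmodels 0.14.6), first on length and then on GC content, from each log2 ratio. The transcript rule was chosen after seeing that the longest coding sequence of Npnt belongs to a transcript without UTRs. Promoter windows are those of RefSeq.

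The 10 genes and the gene lists were chosen with earlier results of these data known. All 10 are named. From each list the text names genes past 2-fold in GelMA-PSS against both controls or in GelMA against TCP (at most 4), the gene highest per length in TCP, and Itga8, Egfl6 and Ptk2b. For Npnt, Itga7 and Ptk2 the 3 genes with the nearest pair of log2 ratios are named. Des, Myog, Myf5 and Myod1 were added after their values were seen. On simulated counts for GelMA-PSS against both controls, 100% of 200 genes changed 4-fold were recovered among 12902 genes tested. These counts varied by counting error only, and the changed genes had a mean above 10 CPM. Recovery at the 2-fold threshold was therefore all but fixed in advance. The simulation does not bear on variation between cultures or on changes below 2-fold. Alternatives covered scaling, including DESeq2 1.42.0 size factors, the pseudocount, the filter, the fold threshold and the correction for length and GC content.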

Additional observations from a re-analysis of the deposited data

How the results depend on the processing

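Each gene's log2 ratio was recomputed under 6 other settings, and of 240 such values 129 moved by less than the counting error and 111 by more. Dropping the filter cannot change a gene's ratio, and DESeq2 size factors and the pseudocount of 0.1 shifted these ratios by 0.02 at most. Nearly all of the 111 came from library totals, TPM and the correction, so the 129 are no measure of stability under those. DESeq2 size factors and the absence of a filter on low counts left every count within 1.5 times of its value. For the filter this was fixed in advance, because genes below 1 CPM in every library cannot pass 2-fold with a pseudocount of 1. With library totals in place of TMM factors, 0 of the 10 genes had their highest level in GelMA-PSS and their median ratio to the mean of the controls was -0.34. With TPM and no TMM factors, 0 were higher, 2 (Itgav and Npnt) were past 2-fold, the median was -0.65, and 1047 genes passed 2-fold between GelMA-PSS and GelMA and 640 against both controls. These scalings moved the median of all expressed genes, relative to the mean of the controls, by -0.12 and -0.36, and the median of the 10 genes minus that of all genes was -0.25 as reported, -0.26 and -0.32. Of the 333 genes past 2-fold against both controls 180 were higher, against 97 of 358 with library totals and 30 of 640 with TPM. Itga5 changed sign against GelMA under both scalings and against TCP with TPM, and Itgb3 changed sign against the mean of the controls under both. In the lists, library totals left 0 of 25 FAK partners higher than both controls in place of 5. With a pseudocount of 0.1, 319 genes passed 2-fold in GelMA against TCP, 881 in GelMA-PSS against GelMA and 553 against both controls. Corrected for length and GC content, these counts were 243 for GelMA-PSS against GelMA, 571 against TCP and 137 against both, 5 of the 10 genes were lower and 4 higher than both controls, and the median was -0.046, or -0.041 with the transcript of the longest coding sequence, an alternative chosen after seeing the data. With that transcript 3 genes in place of 4 were higher, and Npnt was past 2-fold in GelMA-PSS against TCP. With a threshold of 1.5-fold, 740, 2871, 3247 and 2010 genes passed for GelMA against TCP, GelMA-PSS against GelMA, GelMA-PSS against TCP and both controls, and 3 of the 10 genes passed in some comparison. If both reads of a pair had been counted, the counting error of Npnt in GelMA-PSS against TCP would be 0.0088 in place of 0.0063 on the log2 scale. No paired analysis was possible because each substrate has 1 library.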

Other observations

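In each library, genes with 1 to 20 counts had an even count more often than an odd one, 51.3% of 3054 genes on TCP, 53.6% of 4102 on GelMA and 50.8% of 2983 on GelMA-PSS, which bears on whether reads or pairs were counted and does not settle it. Itga9, a chain that binds tenascin and osteopontin, had 175 counts on TCP, 52 on GelMA and 32 on GelMA-PSS, or 1.44, 0.572 and 0.177 CPM, while Itga4, its closest relative among the alpha chains, had 14.7, 25.3 and 26.4 CPM. On the scale of log2(CPM + 1), the ratios of GelMA-PSS to GelMA and TCP were -0.42 and -1.05 for Itga9. For Itga4 they were 0.06 and 0.80. Corrected for length and GC content, these ratios were 0.11 and -0.66 for Itga9 and 0.71 and 1.26 for Itga4. Itga9 lies near the pseudocount of 1, which shrinks its ratios, so its corrected sign against GelMA is not read as a higher level. The fibronectin gene Fn1, whose product is bound by Itga5 with Itgb1, had 4013, 6300 and 4335 CPM. The log2 ratio of GelMA-PSS to GelMA was -0.54 as scaled and 0.16 corrected, so which gel was higher depends on the correction, while both gels were above TCP on both scales. These genes were chosen after their values were seen.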
